A study of Mus musculus with 76 samples.

Results

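The genes described here are the cytosolic ribosomal protein genes of the mouse, 80 of the 38129 genes in a table of RNA-seq read counts from 3 tissues: liver, heart and suprachiasmatic nucleus (SCN, the hypothalamic site of the central circadian clock). Members were protein-coding entries with an Rpl or Rps name followed by a number, together with Rpsa, Rplp0, Rplp1 and Rplp2. Ribosomal S6 kinases and pseudogenes were left out, and a mean of at least 1 CPM (a count scaled to the library total) in 1 of the 3 tissues was required. Of 83 names that matched, Rpl39l, Rpl10l and Rpl24 were under that level. Rpl24 had tissue means of 0.17 to 0.28 CPM, and whether its reads were lost in counting was not tested. The members divide into 32 genes of the small subunit and 48 of the large subunit, and every one of the 80 passed the low-count filter in each tissue. Fau, whose product is a ribosomal protein fused to a ubiquitin-like protein, has a name outside these patterns and was kept in a separate list of other translation genes.

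Each cytosolic ribosome holds one copy of most of these proteins, so their messenger RNAs are abundant in every cell and tend to be held at matched levels. Many of the transcripts begin with a C followed by a run of pyrimidines, the terminal oligopyrimidine (TOP) tract, through which the growth-sensing kinase mTORC1 and the RNA-binding protein LARP1 control their translation and stability. In liver, ribosome production is known to follow feeding and the circadian clock. A few members have a paralog that can take their place in the ribosome, of which Rpl3l in striated muscle is the best known.

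The study asked how feeding time and loss of the clock gene Bmal1 (symbol Arntl) in VIP (vasoactive intestinal peptide) cells alter expression in the SCN and in peripheral organs. Mice were Bmal1-VIPKO (KO) or wild type (WT), were kept on time-restricted feeding (TRF) or fed ad libitum (AL), and were sampled at circadian time 12 (CT12) or 0 (CT0). Each of the 3 tissues therefore had 8 groups, of 3 libraries apart from 4 in the TRF KO groups of liver and heart, which gives 76 libraries in all. The deletion is restricted to VIP cells, so liver and heart cells of the KO keep the gene, and so do the other cells of a dissected SCN. The feeding hours, sex and age are not in the labels used here, and nothing in them says that the libraries of a group came from separate animals, so p-values measure only the spread between these libraries.

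Total counts ran from 13502014 to 19018983 per library. Arntl averaged 23.3 ± 3.08 CPM in the KO libraries of the SCN and 22.4 ± 2.41 CPM in the WT libraries (SD, n = 12 each), so its level in bulk SCN tissue did not separate the genotypes. Markers of hepatocytes, cardiomyocytes, and neurons and the SCN had their highest mean in the tissue they mark, apart from Rgs16, which was at 38.8 CPM in liver and 26.6 CPM in SCN, and Vip averaged 4.13 CPM in SCN. The 3 AL WT CT12 hearts, of which 2 are numbered 47 and 48 and 1 has a 3-digit number, stood apart: 12 neuron and SCN markers summed to 269, 697 and 268 CPM in them, against at most 13.4 CPM in any other heart. Their 6 glial markers summed to 496, 1243 and 501 CPM, against at most 27.9 CPM elsewhere in heart. Heart library 48 also had 34.2% of its counts in mitochondrial genes, against 7.76% to 13.6% in the other hearts. Counts of called members for feeding, the KO effect under AL, feeding by time and genotype by feeding in heart are therefore given with and without these libraries. Heart levels, level differences between tissues and most values of single genes are given with them alone. In each AL group 1 library has a 3-digit number. These were nearer to one library of their own group in liver and heart than other pairs were, with a chi-square per degree of freedom of 1.75 to 5.49 over 8 pairs, against 4.62 to 269.0 over 16 other pairs. They were kept, and numbers of called members without them are given where they differ, while values of single genes are given with them. Whether they are independent replicates cannot be told from these values. If they are not, standard errors and p-values of comparisons with AL groups would be too small.

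The sequence at the start of transcription shows how unevenly the TOP tract is annotated among the members. The 30-base windows printed here run from 10 bases before the annotated start to 20 bases from it (RefSeq, build GRCm38.p6, 5′ to 3′ on the strand of the gene), with the C and its run of at least 4 pyrimidines in capitals where the run begins at the start itself. The first 5 genes hold a tract there, and the next 4 have none at the annotated base and are members that several results turn on.
Rpl15, chr14:18270967-18270996, minus strand: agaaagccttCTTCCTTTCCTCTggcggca
Rps6, chr4:86857348-86857377, minus strand: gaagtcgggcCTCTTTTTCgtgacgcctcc
Rps18, chr17:33955646-33955675, minus strand: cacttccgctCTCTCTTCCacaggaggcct
Rps27, chr3:90213629-90213658, minus strand: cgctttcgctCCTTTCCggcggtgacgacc
Rpl35, chr2:39005112-39005141, minus strand: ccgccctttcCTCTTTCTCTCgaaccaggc
Rps4x, chrX:102189372-102189401, minus strand: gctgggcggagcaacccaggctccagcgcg
Rpl7l1, chr17:46782637-46782666, minus strand: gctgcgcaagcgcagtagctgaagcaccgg
Rps25, chr9:44407704-44407733, plus strand: ccgacatcttagcgaggctgctgtggtcta
Rpl3l, chr17:24727816-24727845, plus strand: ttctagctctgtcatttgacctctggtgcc
Of the 60 members with a promoter in the RefSeq table, 13 (21.7%) had the tract exactly at an annotated start, against 813 of 27025 genes (3.01%). Allowing 5 bases either way raised the share to 29 of 60 (48.3%), against 21.2% of all genes. The circadian E-box CACGTG, which reads the same on both strands, was in a window of 300 bases for 6 of the 60 members (10.0%). It was in such a window for 8.09% of all genes. Genes with more than 1 annotated start have more than 1 window. TATAAA on the sense strand, 15 to 40 bases before the start, was found for 1 member (1.67%), against 2.41% of all genes. A missing tract says only that these letters do not stand at the annotated base.

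Levels per transcript length, as TPM (counts divided by one annotated transcript length per gene and scaled to the same total in each library), spanned a wide range within every tissue. Rps2, a protein of the mRNA entry channel, led in heart at 1745 ± 265 TPM (SD, n = 26 libraries) and in liver at 1905 ± 206 TPM (n = 26). Rplp1, an acidic protein of the ribosomal stalk, led in SCN at 2170 ± 147 TPM (n = 24). Rpl3l was lowest in SCN at 1.22 ± 0.51 TPM and in liver at 0.38 ± 0.35 TPM, and Rpl13a was lowest in heart at 4.73 ± 0.97 TPM. Rpl13a and Rpl35 were near the bottom everywhere (4.73 to 14.3 TPM and 19.9 to 28.6 TPM as tissue means). Members of this family have many processed pseudogenes, the counting program is not named in the sources used here, and reads shared with such copies may be lost, so the levels of single members per length are uncertain. Annotated ribosomal protein pseudogenes themselves held a median of 0.0531% of the counts in heart, 0.0546% in SCN and 0.0636% in liver.

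The paralogs differed between the tissues. Rpl3l, the muscle paralog of the peptidyl-transferase-centre protein Rpl3 (chr17:24727820-24736143, plus strand, GRCm38), reached 460 ± 66.9 TPM in heart, where Rpl3 itself was at 235 ± 41.3 TPM. As a share of the pair per length, Rpl3l made up 40.9% to 74.6% in heart (median 66.7%), 0.0362% to 0.255% in SCN and 0% to 0.330% in liver, with no overlap between heart and the others. The 3 AL WT CT12 hearts held 40.9% to 57.3%, and the lowest of the other hearts held 63.0%. In a model of all 76 libraries, heart exceeded SCN in Rpl3l by 9.79 ± 0.11 on the log2 scale and liver by 9.94 ± 0.12 (edgeR, adjusted p = 7.39e-59 for heart over liver), whereas Rpl3 was lower in heart than in liver by a log2 difference of -1.62 ± 0.03. Rps27l, the paralog of the zinc-finger protein Rps27 and a known p53 target, took 18.5% to 26.2% of its pair in heart, 5.07% to 9.01% in SCN and 38.9% to 55.5% in liver. The 3 ranges do not overlap, and the log2 difference from liver was -2.23 ± 0.04 in heart and -5.05 ± 0.04 in SCN. Rpl22l1, the paralog of Rpl22, followed another order, with 8.22% to 20.6% of its pair in heart, 37.2% to 47.8% in SCN and 19.3% to 29.4% in liver. The AL WT CT12 hearts held 15.0% to 20.6%, against at most 14.1% in the other hearts. For Rpl7l1, a relative of Rpl7, the shares were 6.12% to 8.72% in heart, 8.96% to 11.6% in SCN and 5.83% to 14.6% in liver, so the liver range covers those of both other tissues.

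**Figure D1:**
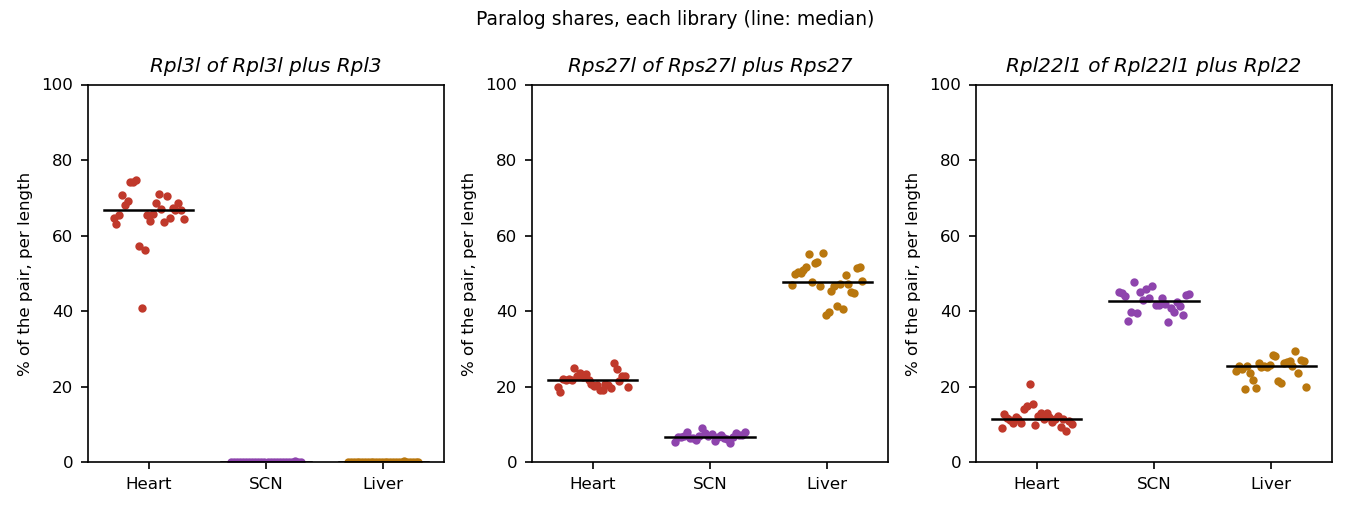
Share of each paralog in its pair (%, counts per transcript length) in every library of heart, SCN and liver, one point per library and a line at the median. Rpl3l is the major form of its pair in heart (median 66.7%) and near 0 elsewhere, Rps27l is highest in liver (median 47.8%), and Rpl22l1 is highest in SCN (median 42.7%).

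For the family as a whole, the size of the difference between tissues depended on the scaling. With TMM scaling (trimmed mean of M values) 1 member was higher and 76 lower in heart than in liver, at an adjusted p below 0.05, where 43.5% of all 20006 genes were higher and 40.1% lower. In SCN 79 were lower than in liver, against 45.8% of all genes. Heart exceeded SCN for 77 members and was below it for 3, against 44.3% and 45.9% of all genes. With library totals alone these counts became 23 higher and 42 lower for heart over liver, 17 and 48 for SCN over liver, and 37 and 29 for heart over SCN. The members' median kept its sign but not its size, at -0.13 with library totals and -0.63 with TMM for heart minus liver level, -0.18 and -1.50 for SCN minus liver level, and 0.02 and 0.83 for heart minus SCN level. Members at the ends of the TMM scale included Rplp0, the stalk base protein, which differed by -0.01 ± 0.05 between heart and liver (adjusted p = 0.883) and by -2.55 ± 0.05 between SCN and liver.

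Summed over the 80 genes, the family took 0.933% to 1.88% of the counts of a library in heart (median 1.59%), 1.23% to 1.59% in SCN (median 1.38%) and 1.35% to 1.88% in liver (median 1.67%). In SCN the TRF libraries held 1.23% to 1.39% (median 1.35%), against 1.32% to 1.59% (median 1.44%) in the AL libraries. These ranges overlapped, with the TRF median inside the AL range. In liver under AL, the KO libraries held 1.64% to 1.88% (median 1.67%), against 1.35% to 1.68% (median 1.53%) in WT, with 1 WT library, number 39 of CT0, inside the KO range. Under TRF the liver ranges overlapped widely, at 1.52% to 1.88% in KO and 1.40% to 1.88% in WT. The lowest heart share, 0.933%, belonged to library 48 of AL WT CT12.

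**Figure D2:**
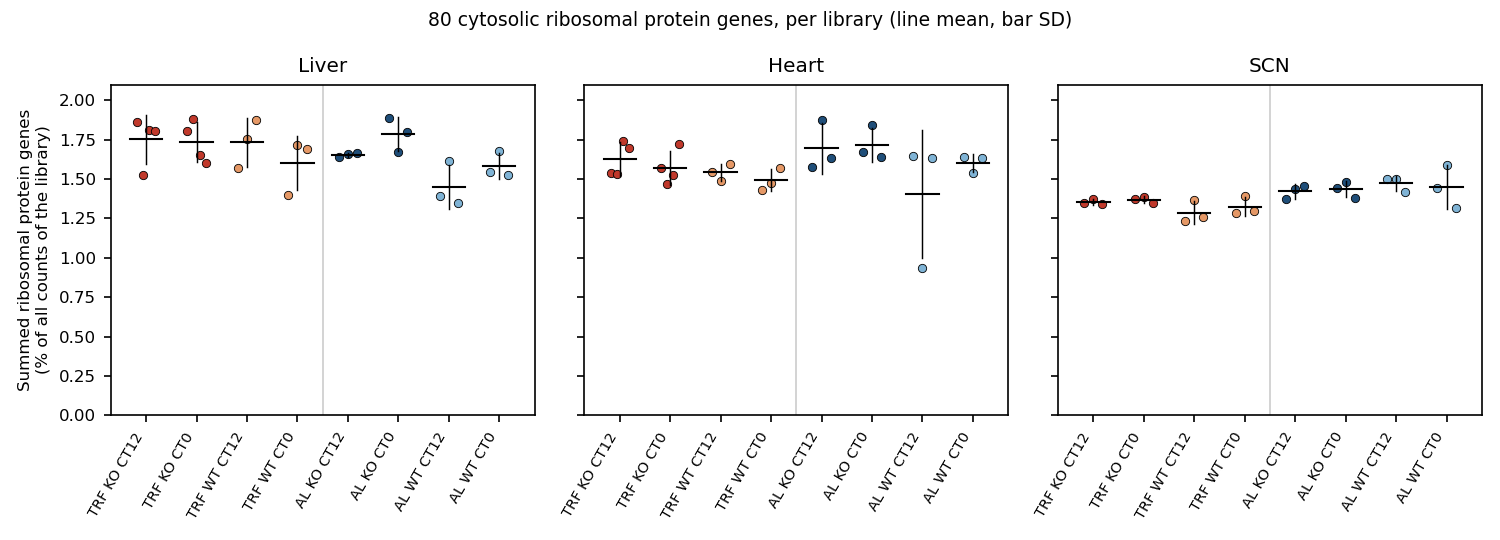
Summed share of the 80 genes in all counts (%) for every library of liver, heart and SCN in the 8 groups of feeding, genotype and time; points are libraries, lines means and bars SD. The median of the TRF libraries is below that of the AL libraries in SCN (1.35% against 1.44%). The median of the AL KO livers is above that of the AL WT livers (1.67% against 1.53%). The ranges overlap in both.

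Under AL feeding, ribosomal protein transcripts were higher in KO liver. Averaged over CT12 and CT0, 37 members were higher and 1 lower in KO than in WT liver (edgeR, adjusted p below 0.05), where 10.3% of the 14397 genes tested were higher and 10.3% lower. The median log2 difference over the 80 members was 0.23, against 0.01 over all genes, 71 of the 80 were positive, and both subunits gave the same median of 0.23. DESeq2 called 39. The median was 0.22 at CT12 and 0.24 at CT0.

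The members with the smallest p came from both subunits. Rpl17, a large-subunit protein near the exit tunnel, had 207 to 233 CPM in AL KO livers (median 220.2), against 149.7 to 179 CPM (median 162) in AL WT livers, and the groups did not overlap. Its log2 difference was 0.44 ± 0.07 (edgeR, adjusted p = 5.96e-05). Rps4x, the X-linked small-subunit protein (chrX:102184941-102189394, minus strand, GRCm38), had 272 to 318 CPM (median 283) in AL KO livers, against 196 to 225 CPM (median 221) in AL WT livers, a difference of 0.43 ± 0.06 (adjusted p = 7.17e-05). Every KO library was above every WT library for this gene. Rps27a, made as a fusion with ubiquitin, stood at 158 to 180.3 CPM in AL KO livers, against 100.3 to 137 CPM in AL WT livers (0.46 ± 0.08, adjusted p = 0.000202). Rpl22 had 88.2 to 99.9 CPM in AL KO livers, against 67.8 to 82.5 CPM in AL WT livers (0.35 ± 0.06, adjusted p = 0.000232). For these 4 genes the KO and WT ranges were separate.

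The exception in direction was Rpl7l1 (chr17:46773907-46782672, minus strand, GRCm38), at 54.0 to 63.8 CPM in AL KO livers and 63.5 to 90.1 CPM in AL WT livers, which nearly separates the groups (-0.29 ± 0.10, edgeR, adjusted p = 0.0462). Among genes often used to normalise quantitative PCR, Rpl32 passed at 0.24 (adjusted p = 0.042), whereas Rplp0 at 0.18 (0.15), Rps18 at 0.20 (0.16) and the sparsely counted Rpl13a at -0.47 (0.11) did not. Rps6, the substrate of S6 kinase, had 298 to 351 CPM in AL KO livers and 246 to 272 CPM in AL WT livers, again without overlap (0.30, adjusted p = 0.0019).

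Genes that build ribosomes moved the other way in the same livers. Of 45 genes of RNA polymerase I and ribosome assembly, 27 were lower and 0 higher in AL KO than in AL WT liver, with a median log2 difference of -0.45. They included the rRNA methyltransferase Nop2 (-1.18 ± 0.18, edgeR, adjusted p = 8.25e-05), the U3 particle protein Rrp9 (-0.81 ± 0.13, adjusted p = 9.53e-05) and the assembly factor Rrs1 (-1.04 ± 0.17, adjusted p = 0.000182). Of 43 other translation genes, 4 were higher and 4 lower, near the 10.3% of all genes in each direction. The higher ones included the TOP genes Eef1a1 (0.31) and Tpt1 (0.26), and the lower ones the scaffold initiation factor Eif4g1 (-0.32). Of 24 regulators of ribosomal protein synthesis, 4 rose, including Tsc1 (0.62) and Sesn1 (0.63), which restrain mTORC1, and 4 fell, including Max (-0.61), the partner of MYC. Of 77 mitochondrial ribosomal proteins, 2 were higher and 10 lower (median -0.07).

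Hepatocyte transcripts moved with the genotype too. The 8 hepatocyte markers summed to 121441 to 133431 CPM in AL KO livers, against 104431 to 111441 CPM in AL WT livers, with no overlap, although of the 8 markers albumin alone passed the test (0.36 ± 0.08, edgeR, adjusted p = 0.00152) and their median difference was 0.21. Genes with transcripts under 1 kb outside the family had a median of 0.04, and those over 4 kb had 0.01. The part of either in the result was not tested, and in bulk tissue fewer cells of a type and less RNA per cell cannot be told apart. With the 3-digit AL libraries left out, 16 members were called and the median was 0.20.

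**Figure D3:**
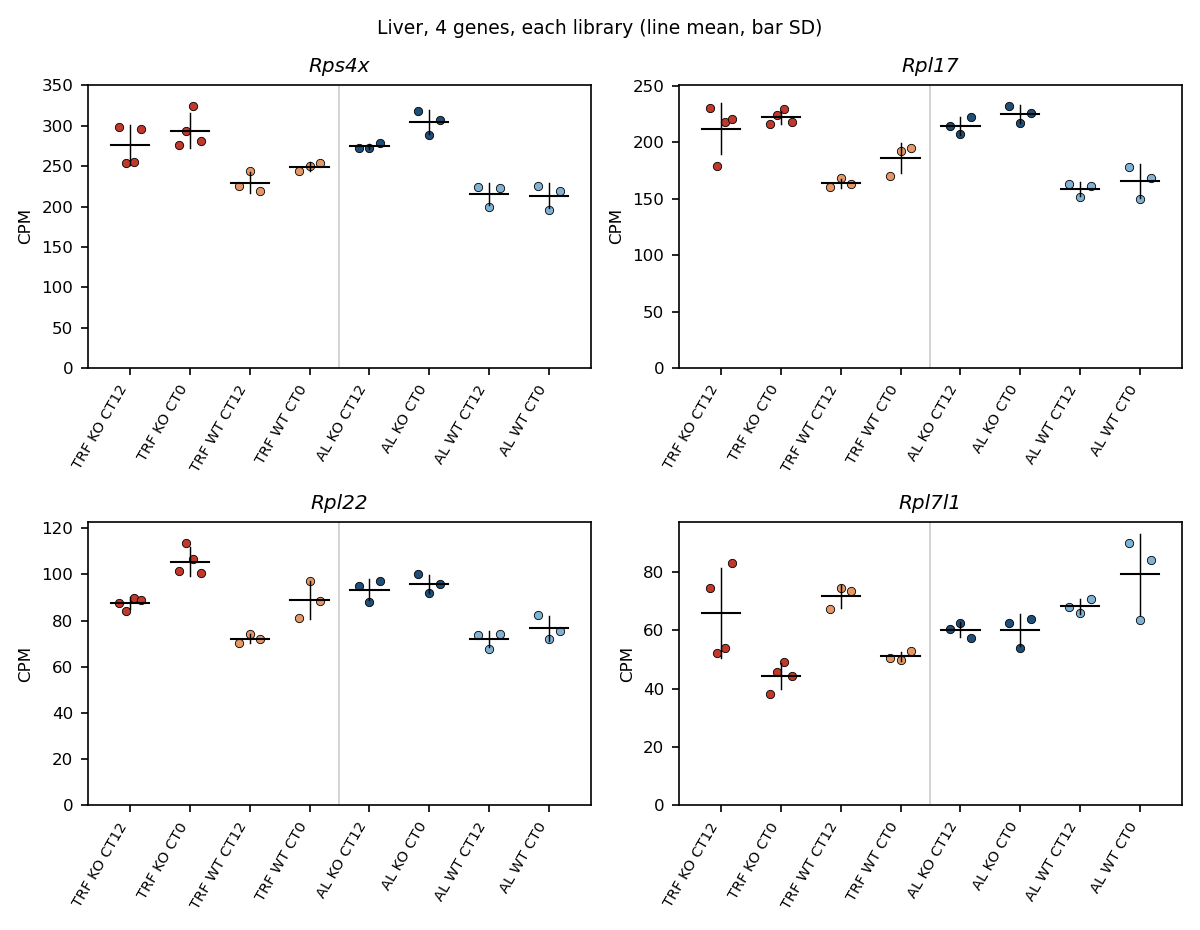
CPM of Rps4x, Rpl17, Rpl22 and Rpl7l1 in every liver library, grouped by feeding, genotype and time; points are libraries, lines means and bars SD. Rps4x, Rpl17 and Rpl22 lie higher in AL KO than in AL WT livers without overlap, and Rpl7l1 is higher at CT12 than at CT0 in TRF livers of both genotypes.

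Under TRF the same direction was seen, with a smaller median. Between KO and WT livers on TRF, 18 members were higher and 0 lower (5.32% of all genes higher), with a median of 0.08 and 58 of 80 positive, and DESeq2 called 23. All 18 were among the 37 higher under AL, which is 48.6% of the 37, where 46.2% of all 80 members were higher under AL. Members called under AL had smaller standard errors than the others (medians 0.0729 and 0.107). The part of precision in this overlap was not tested. Rpl17 had 179 to 230.2 CPM (median 219.6) in TRF KO livers and 160.2 to 195 CPM (median 169.5) in TRF WT livers, so the groups overlapped (0.31, edgeR, adjusted p = 0.00243). Rps13, a small-subunit protein, had 89.3 to 105 CPM in TRF KO livers and 76.3 to 87.7 CPM in TRF WT livers without overlap (0.25, adjusted p = 0.0037). Rpl22 and Rps27a also passed, at 0.26 (adjusted p = 0.00438) and 0.33 (adjusted p = 0.00568). The count was 4 with only the groups compared in the fit, 6 with no filter on low counts, 8 without the 3-digit AL libraries and 8 without libraries 55 and 64. It fell to 9 without TRF WT CT0 library 1 and to 9 without TRF WT CT12 library 12. Hepatocyte markers summed to 125756 to 142726 CPM (median 137888) in TRF KO livers and 104091 to 128788 CPM (median 115444) in TRF WT livers, and their part was not tested. Of the ribosome assembly genes, 1 was lower under TRF, Bop1 (-0.46, adjusted p = 0.0193), with a median of -0.12 over the 45.

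The difference between the KO effects under TRF and under AL was tested directly in liver. The median of that difference was -0.13 over the members, 75 of 80 being negative, but 0 passed (edgeR, 0.827% of all genes in either direction), with 3 at an unadjusted p under 0.05 and 0 called by DESeq2. A p that misses the threshold does not show that the KO effects were equal.

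Some members were also higher in liver on TRF. Averaged over genotype and time, 19 members were higher and 1 lower in TRF than in AL liver (10.9% and 8.95% of all genes), with a median of 0.12 and 71 of 80 positive. DESeq2 called 31, library totals gave 10 and no filter gave 12. Rps27 had 50.8 to 82.2 CPM (median 65.6) in TRF livers and 43.2 to 64.7 CPM (median 54.0) in AL livers, in overlapping ranges (0.25 ± 0.06, edgeR, adjusted p = 0.00359). Rps28, a small-subunit protein (chr17:33819027-33824562, minus strand, GRCm38), ranged from 39.8 to 84.2 CPM (median 61.6) in TRF livers and from 33.5 to 67.0 CPM (median 42.3) in AL livers (0.48 ± 0.12, adjusted p = 0.00907). Rps12 (0.27 ± 0.07, adjusted p = 0.014) and Rpl32 (0.19 ± 0.06, adjusted p = 0.0212) were next. Rpl7l1 was the one member lower, at -0.22 ± 0.07 (adjusted p = 0.0304). Rps18 passed at 0.22 (adjusted p = 0.025), whereas Rplp0 was at 0.13 (0.12) and Rps6 at 0.05 (0.49).

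By median over the members, the feeding difference was 0.11 in KO livers at CT12, -0.01 in KO at CT0, 0.28 in WT at CT12 and 0.12 in WT at CT0. Hepatocyte markers summed to 104091 to 142726 CPM (median 128379) in TRF livers and 104431 to 133431 CPM (median 116441) in AL livers, and their part was not tested. Its count rested on single libraries: it ranged from 6 without TRF WT CT0 library 3 to 36 without AL WT CT12 library 48, and leaving out any of 18 of the 26 livers moved it by more than 1.5 times. Without the 3-digit AL libraries 0 members passed, at a median of 0.10. Of the other translation genes 3 were higher and 6 lower, of the assembly genes 3 and 4, of the regulators 6 and 3, and of the mitochondrial ribosomal proteins 3 and 8.

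Time of day moved very few members in liver, and the few that moved did so under TRF. Rpl7l1 had 74.7, 52.4, 53.9 and 83.3 CPM at CT12 in TRF KO livers, against 38.2, 45.6, 49.2 and 44.5 CPM at CT0. Its values in TRF WT livers were 67.2, 74.5 and 73.4 CPM at CT12, against 50.5, 49.8 and 52.9 CPM at CT0. All CT12 values were above all CT0 values in both genotypes, with log2 differences of 0.57 ± 0.13 in KO (edgeR, adjusted p = 0.00174) and 0.49 ± 0.14 in WT (adjusted p = 0.0166). Under AL the gene had 60.5, 62.7 and 57.6 CPM at CT12 and 62.7, 54.0 and 63.8 CPM at CT0 in KO livers. In AL WT livers it had 67.9, 66.0 and 70.9 CPM at CT12 and 90.1, 63.5 and 84.0 CPM at CT0, so no such order was present. The TRF time effect exceeded the AL time effect by 0.64 ± 0.14 (adjusted p = 0.00109).

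Rpl22 went in the opposite direction. It had 87.7, 84.0, 89.7 and 89.1 CPM at CT12 in TRF KO livers, against 101, 114, 107 and 100.5 CPM at CT0 (-0.27, edgeR, adjusted p = 0.00906). In TRF WT livers it had 70.2, 74.2 and 72.0 CPM at CT12, against 80.9, 97.1 and 88.5 CPM at CT0 (-0.30, adjusted p = 0.0115). The groups did not overlap in either genotype, and the TRF time effect was below the AL time effect by a log2 difference of -0.22 (adjusted p = 0.042).

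These were the only members called for time under TRF in liver, where 22.0% of all genes were called in KO and 23.1% in WT, and likewise for feeding by time, where 31.5% were called. Without TRF WT CT0 library 2 neither was called in WT, and without library 1 of that group, or library 12 of TRF WT CT12, 1 was. The feeding by time count ranged from 1 to 11, the highest without AL WT CT12 library 48, and leaving out any of 12 livers moved it by more than 1.5 times. Under AL 0 members were called for time in KO (0.0139% of all genes), with 0 at an unadjusted p under 0.05, and 0 in WT (8.99% of all genes), with 2 at an unadjusted p under 0.05, by edgeR. The count in WT became 2 without AL WT CT12 library 48. Most members were nevertheless lower at CT12 under AL, with medians of -0.15 in KO (2 of 80 positive) and -0.13 in WT (7 of 80 positive), and genes under 1 kb outside the family had medians of -0.04 and -0.12. No member was called for genotype by time under TRF (0.0556% of all genes) or AL (1.56%), with 0 at an unadjusted p under 0.05 and 0 by DESeq2 in both. Of ribosome assembly genes 5 were higher and 2 lower at CT12 in TRF KO livers, and 6 higher, including the acetyltransferase Nat10 (0.66), and 1 lower in TRF WT livers. Called translation factors in TRF WT livers included Eif4b (-0.79), Eif4a2 (-0.82) and Pabpc1 (-0.59), all lower at CT12. These are examples, and the numbers of their list called in each direction are not given here. The mTORC1 inhibitors Deptor (-0.95) and Ddit4 (2.12) went in opposite directions.

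**Figure D4:**
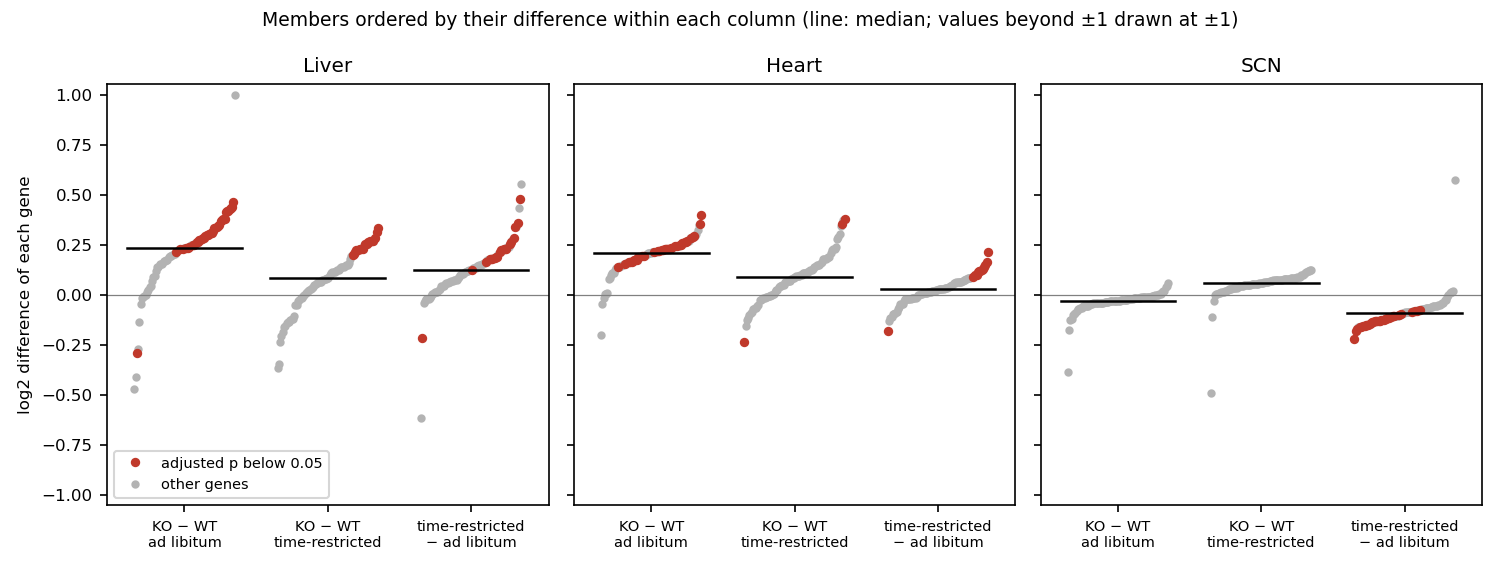
Log2 difference of each of the 80 genes in liver, heart and SCN for KO minus WT under AL, KO minus WT under TRF, and TRF minus AL, ordered within each column; red points have an edgeR adjusted p below 0.05 and the line is the median. The medians for KO minus WT under AL are 0.23 in liver and 0.21 in heart, and TRF minus AL is positive in liver (0.12) and negative in SCN (-0.09). Without the AL WT CT12 hearts, which leaves CT0 for this comparison, the heart genotype median is 0.08.

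In heart, the comparisons with the most called members involved the AL WT CT12 libraries. Between CT12 and CT0 in AL WT hearts, 28 members were lower and 1 higher (17.2% and 23.1% of all genes), with a median of -0.26. The 29 calls became 3 with library totals, 15 with no filter and 1 with only the groups compared in the fit. In these hearts the neuron and glia markers were raised as given above, 61 of 77 mitochondrial ribosomal proteins were lower and 0 higher (median -0.38), 7 of 8 cardiomyocyte markers were lower, and genes under 1 kb outside the family had a median of -0.22, against 0.13 for those over 4 kb. Rpl3, the member with the smallest p, had 210.3, 211 and 210.5 CPM at CT12, against 134, 123 and 127 CPM at CT0 (0.72 ± 0.08, edgeR, adjusted p = 1.88e-07). Rpl3 was at rank 4 among members in SCN, at 1227 ± 71.2 TPM. Rpl3l fell to 288, 149 and 274 CPM at CT12, against 391.9, 360 and 381 CPM at CT0 (-0.67 ± 0.15, adjusted p = 0.00079), and its share of the pair was 40.9% to 57.3% at CT12 against 74.2% to 74.6% at CT0. Rps13 (-0.45), Rpl28 (-0.36) and Rpl22 (-0.29) were also lower. The count ranged from 10 without library 48 to 48 without the 3-digit library of AL WT CT12, and was 45 without library 47 and 15 without either library 38 or the 3-digit library of AL WT CT0. The part of brain transcripts or RNA quality in this result was not tested, and leaving out all 3 CT12 libraries leaves no comparison.

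Away from those libraries time of day had no called member in heart. The count was 0 in AL KO (0.171% of all genes, 1 member at an unadjusted p under 0.05, 0 by DESeq2), 0 in TRF KO (3.22%, 1 and 1) and 0 in TRF WT (4.38%, 4 and 1), in the edgeR test. In TRF WT it became 1 without any one of 5 libraries (AL KO CT0 3-digit, AL KO CT12 library 66, AL WT CT12 libraries 47 and 48, and TRF KO CT12 library 28), and in TRF KO it became 1 without AL WT CT12 library 48. The lack of a call does not show that levels were equal. Rpl3 at CT12 had 142.8, 165 and 150.4 CPM in AL KO hearts, against 170.1, 184 and 166 CPM at CT0, which is opposite in order to the AL WT hearts.

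Between genotypes under AL, 36 members were higher and 0 lower in KO hearts (6.34% of all genes higher), with a median of 0.21 and 77 positive. The count was 2 with library totals, 13 with no filter and 10 with only the groups compared in the fit. Rpl5, a 5S rRNA-binding protein, had 247 to 259 CPM (median 251) in AL KO hearts, against 189.7 to 228 CPM (median 214) in AL WT hearts (0.25, edgeR, adjusted p = 0.000459), and Rps27 had 59.4 to 64.3 CPM against 41.5 to 56.2 CPM (0.29, adjusted p = 0.00193). Both gene ranges were separate. With the AL WT CT12 hearts left out of the fit, which leaves CT0 for this comparison, 1 member was called at a median of 0.08. In the fit with all hearts, the comparison at CT0 alone also called 1 member higher (1.23% of all genes higher), at a median of 0.07. That member was Rpl3, with 170.1, 184 and 166 CPM in AL KO hearts and 134, 123 and 127 CPM in AL WT hearts at CT0 (0.44 ± 0.08, adjusted p = 0.00492), while Rpl3l differed by -0.25 ± 0.15 (adjusted p = 0.588). The cardiomyocyte markers summed to 84191 to 88307 CPM in AL KO hearts and 44666 to 82600 CPM in AL WT hearts. The count also ranged from 17 to 48 when single libraries were left out, with 17 without AL KO CT12 library 66 or AL WT CT0 library 39 or the 3-digit one, 19 without AL KO CT0 library 56 or 57, and 23 without AL WT CT0 library 38.

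Under TRF, 2 members were higher in KO hearts and 1 lower (2.76% of all genes in either direction). DESeq2 called 5, a fit of only the groups compared 13, library totals 1 and no filter 1. Rpl30, a large-subunit protein, had 26.7 to 37.8 CPM (median 30.1) in TRF KO hearts, against 20.8 to 26.9 CPM (median 24.6) in TRF WT hearts, overlapping at the edge (0.35 ± 0.08, edgeR, adjusted p = 0.0233). Rpl35 had 10.3 to 14.4 CPM in TRF KO hearts and 8.71 to 10.5 CPM in TRF WT hearts (0.38 ± 0.10, adjusted p = 0.0428). Rps27l was lower, at 21.0 to 25.4 CPM in TRF KO hearts and 25.0 to 28.5 CPM in TRF WT hearts (-0.24 ± 0.06, adjusted p = 0.0305). The count was 17 without AL WT CT12 library 48 and 0 without TRF WT CT0 library 1. It was 1 without any one of TRF KO CT0 library 55 or 73, TRF KO CT12 library 30, TRF WT CT0 library 2 and TRF WT CT12 libraries 10 and 11.

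For feeding, 12 members were higher and 1 lower in TRF than in AL hearts (8.08% and 13.8% of all genes), with a median of 0.03. Library totals gave 2 calls and a median of -0.04, and no filter gave 4 calls. Rps13 led, at 106.3 to 133 CPM (median 117) in TRF hearts and 65.7 to 114 CPM (median 109) in AL hearts (0.21, edgeR, adjusted p = 0.000494), followed by Rpl7 (0.16), Rps24 (0.15) and Rpl23 (0.12), and Rpl30 was lower (-0.18, adjusted p = 0.0316). Leaving out the AL WT CT12 hearts, which takes WT at CT12 out of the comparison, left 0 higher and 3 lower, with a median of -0.05. The count was 8 without the 3-digit AL WT CT0 library, TRF KO CT0 library 20 or TRF WT CT12 library 12, and 20 without AL WT CT12 library 48.

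The interactions in heart depended on the same libraries. Feeding by time called 3 members higher and 1 lower (22.5% of all genes), among them Rpl7l1 (0.39, edgeR, adjusted p = 0.000913). The range was 3 to 15 when single libraries were left out (15 without AL WT CT12 library 47 and 13 without the 3-digit one). Without the 3 AL WT CT12 hearts, which leaves KO alone for this comparison, the count was 0. Genotype by time under AL called 8 higher and 1 lower (28.6% of all genes), led by Rpl3 (-0.90) and Rps13 (0.51). It called 1 with library totals, and 5 with no filter or with only the groups compared in the fit. That count ran from 5 without AL KO CT0 library 56, AL KO CT12 library 66 or AL WT CT0 library 38 to 25 without AL WT CT12 library 47, 21 without the 3-digit library of AL WT CT12 and 15 without TRF WT CT0 library 2, and it cannot be computed without all 3 AL WT CT12 hearts. Under TRF genotype by time called 0 (0.0% of all genes; 1 member at an unadjusted p under 0.05, 0 by DESeq2). The KO effect under TRF was below that under AL for 10 members and above it for 0 (2.46% of all genes lower), led by Rps3a1 (-0.27). It was 1 with library totals, and 0 with no filter or without the 3-digit AL libraries. With the AL WT CT12 hearts left out, which leaves CT0 for this comparison, 0 passed and the median was 0.00259. The count was 6 without the 3-digit AL WT CT0 library or TRF WT CT12 library 12.

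In SCN, ribosomal protein transcripts were slightly lower on TRF. Averaged over genotype and time, 34 members were lower and 0 higher in TRF than in AL SCN (7.35% of all 18133 genes lower), 13 of the small and 21 of the large subunit. The median log2 difference was -0.09 in both subunits, 6 of 80 members were positive, and DESeq2 called 35. Rps25, a small-subunit protein used by some viral internal ribosome entry sites (chr9:44407139-44410427, plus strand, GRCm38), had 97.9 to 109 CPM (median 105) in TRF SCN, against 102.9 to 132 CPM (median 116) in AL SCN. The ranges overlapped, with the TRF median inside the AL range, and the difference was -0.16 ± 0.03 (edgeR, adjusted p = 0.00279). Rpl14 had 119.5 to 151 CPM (median 137) in TRF SCN, against 130.0 to 175 CPM (median 158) in AL SCN (-0.22 ± 0.04, adjusted p = 0.00279). Rpl35a followed (-0.18 ± 0.04, adjusted p = 0.00416), with 102.9 to 123 CPM (median 112) in TRF SCN and 111.9 to 139 CPM (median 125) in AL SCN.

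Rpl3, at rank 4 by level per length in SCN, passed at -0.11 (edgeR, adjusted p = 0.0068), with 564 to 666 CPM in TRF SCN and 621 to 697 CPM in AL SCN. Rpl32 (-0.13, adjusted p = 0.024) and Rps6 (-0.14, adjusted p = 0.013) passed as well, whereas Rplp0 was at 0.01 (adjusted p = 0.87), with 264 to 314 CPM in TRF SCN and 262 to 300.2 CPM in AL SCN. The median standard error over the called members was 0.0334 in SCN, against 0.0729 for those called between genotypes in AL liver.

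**Figure D5:**
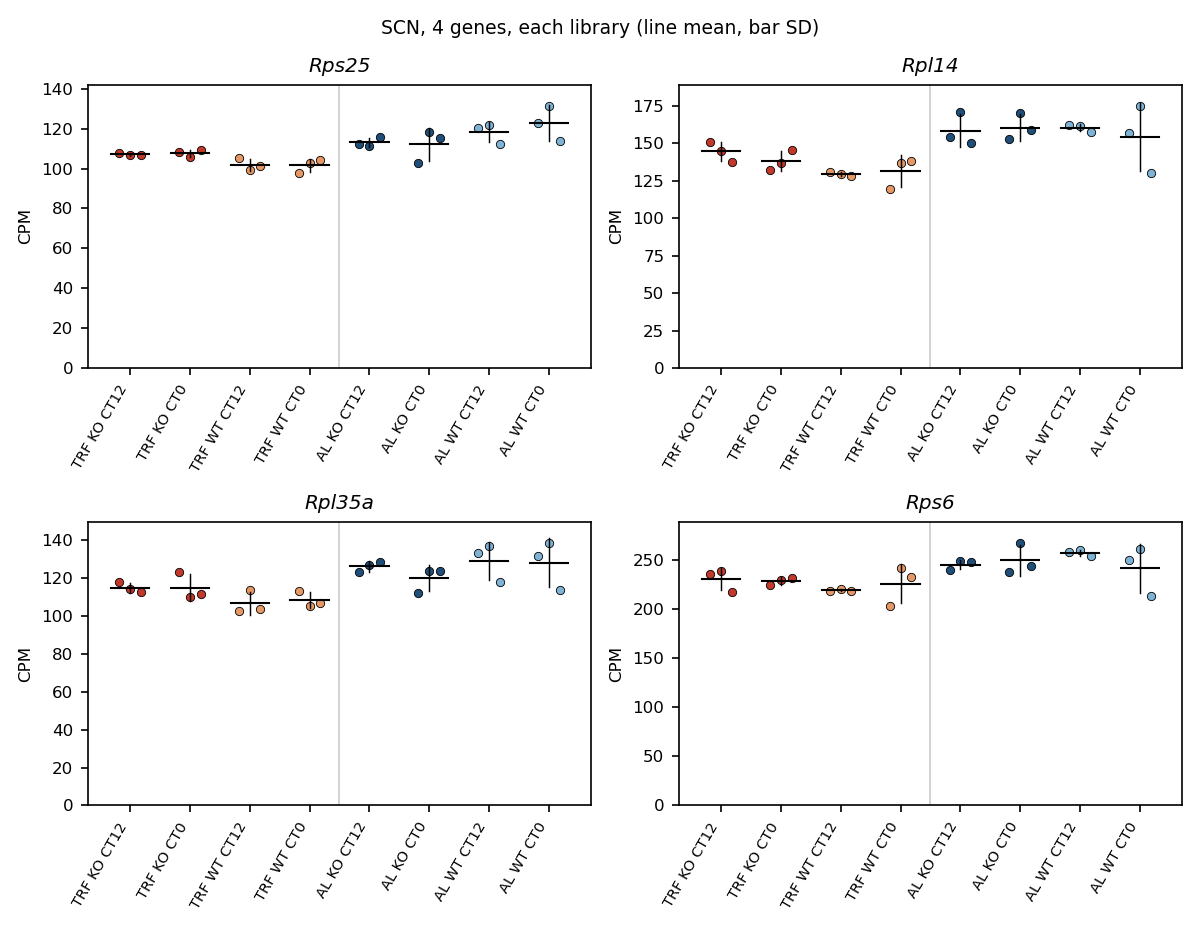
CPM of Rps25, Rpl14, Rpl35a and Rps6 in every SCN library, grouped by feeding, genotype and time; points are libraries, lines means and bars SD. Medians in TRF SCN are below those in AL SCN for each gene, for example 105 against 116 CPM for Rps25, with overlapping ranges.

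Of the other lists, translation genes had the most calls. Of 43 other translation genes 11 were lower and 0 higher (median -0.04), including Eef1g (-0.19), Btf3 (-0.20) and Naca (-0.16), which encode an elongation factor subunit and the nascent-chain complex. Of 45 assembly genes 4 were lower and of 77 mitochondrial ribosomal proteins 6 were lower (median -0.06), both near the 7.35% of all genes, and Mtor, the kinase of the TOP pathway, was higher (0.19). Non-member genes under 1 kb had a median of -0.07 and those over 4 kb of 0.06. Markers of cell types moved as well: glial markers summed to 5865 to 9175 CPM (median 6866) in TRF SCN and 5374 to 7492 CPM (median 6196) in AL SCN, 2 of 6 passed as higher, 3 of the 7 leukocyte markers tested passed as higher (Tyrobp, Lyz2 and Laptm5), and of the 12 neuronal markers Gad1 (0.50) and Syt1 (0.28) were higher and Stmn2 (-0.19) lower. Their part in the result was not tested. The count of 34 went down to 19 without AL WT CT0 library 39, to 20 without AL WT CT12 library 48 and to 22 without TRF WT CT12 library 10. Without TRF WT libraries 1 and 10 it was 19 with a median of -0.08, and it was 41 with the 3-digit AL libraries left out.

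Within single groups, the feeding difference in SCN had medians of -0.05 in KO at CT12 and at CT0, -0.18 in WT at CT12 and -0.11 in WT at CT0. Of these, WT at CT12 alone had called members, 2 lower (0.502% of all genes lower), Rpl3 and Rpl7a. Rpl3 had 564, 574 and 585 CPM in TRF WT SCN at CT12, against 667, 683 and 694 CPM in AL WT SCN, without overlap (-0.25 ± 0.05, edgeR, adjusted p = 0.033). Rpl7a, a large-subunit protein, differed by -0.21 ± 0.05 (adjusted p = 0.0431). This count was 22 by DESeq2 and 0 with only the groups compared in the fit, and leaving out any of 22 of the 24 libraries moved it by more than 1.5 times, between 0 (without AL WT CT12 library 47, for example) and 16 (without the 3-digit AL WT CT0 library). The differences between these 4 values were not tested as such.

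For genotype, time of day and the interactions in SCN, edgeR and DESeq2 called 0 members in each comparison. The members at an unadjusted p under 0.05 are given here with the share of all genes called at an adjusted p. They numbered 7 for KO minus WT under TRF (0.00551%), where 2099 of the 18133 genes had an unadjusted p under 0.05, and 2 under AL (0.0%), where 848 genes did. They numbered 1 for CT12 minus CT0 in TRF KO (0.0%), 2 in TRF WT (0.0165%), 2 in AL KO (0.0%) and 1 in AL WT (0.0276%). For the interactions they numbered 3 for feeding by time (0.0386%), 0 for genotype by time under TRF and 2 under AL (0.0% each), and 7 for genotype by feeding (0.0%). In the last of these 77 of 80 members were positive with a median of 0.09, and the KO effect under TRF alone was also positive for 77 members (median 0.06).

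Differences between tissues were tested in the model of all 76 libraries. The feeding effect was lower in SCN than in liver for 32 members and higher for 0 (5.37% of the 20006 genes lower), with a median of -0.21. Rps28 differed most among those that passed, at -0.57 ± 0.14 (edgeR, adjusted p = 0.004), and Rps27 by -0.39 ± 0.07 (adjusted p = 4.82e-05). The feeding effect in heart was above that in liver for 2 members, Rpl7l1 (0.25) and Rps13 (0.22), and below it for 9 (5.96% and 7.26% of all genes). Without the AL WT CT12 hearts, which takes WT at CT12 out of the comparison in both tissues, 0 were above and 6 below.

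The KO effect under AL was lower in SCN than in liver for 30 members and higher for 0 (4.28% of all genes lower), with a median of -0.27. Rps25 led, at -0.53 ± 0.08 (edgeR, adjusted p = 1.09e-05), followed by Rpl17 at -0.49 ± 0.08 (adjusted p = 2.49e-05). With the 3-digit AL libraries left out, 18 were called. Between heart and liver the KO effect was higher for 1 member, Rpl7l1 (0.29), and lower for 9 (7.4% and 8.62% of all genes). Without the AL WT CT12 hearts it was compared at CT0 alone in both tissues, and was higher for 0 and lower for 6. Feeding by time differed between heart and liver for 3 members (19.8% of all genes). Without those hearts it was compared in KO alone in both tissues, and differed for 0.

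The members called in liver and in SCN were largely the same genes. Of the 34 that were lower in SCN on TRF, 30 (88.2%) were among the 37 that were higher in AL KO liver, which is 81.1% of the 37, where 42.5% and 46.2% of all 80 members were called. Called members had smaller standard errors than the others in both tissues, with medians of 0.0729 against 0.107 in liver and 0.0334 against 0.0392 in SCN. The part of precision in this overlap was not tested. Of the 19 members higher on TRF in liver, 4 (21.1%) were among the 34 lower on TRF in SCN, which is 11.8% of the 34.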

How the data were processed

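TRIzol extraction and the NEBNext Ultra II library kit were used, per the labels' protocols. The submitters' processing notes name FastQC 0.11.8, STAR and build GRCm38 (mm10). The counting program, its strand setting and the annotation release are not given in the sources used here, so reads of overlapping or antisense genes cannot be told apart. The deposited values are raw counts of reads for each gene, in 1 table covering the 76 libraries, with no normalisation. Of 38129 entries, 38038 (99.8%) matched GENCODE vM21 by identifier, which gave coordinates and transcript lengths. Promoters came from RefSeq (GRCm38.p6).

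In each tissue, genes kept by filterByExpr (14397 in liver, 16397 in heart and 18133 in SCN) were scaled by TMM and fitted with edgeR 4.0.16 (robust quasi-likelihood, group means over 8 groups); one model of all 76 libraries (20006 genes) compared tissues. P values were adjusted by Benjamini and Hochberg over all genes of a comparison, and members were called below 0.05. Errors on log2 differences are standard errors. CPM values use the TMM factors; TPM was computed from counts and transcript lengths. The fit was tested on simulated counts. Alternatives were RLE factors, library totals, no filter, DESeq2 1.42.0, only the groups compared, leaving out libraries, and a block for the library number. Members, lists and comparisons were chosen with earlier results of these data known. Genotype by feeding and the differences of KO effects between tissues were added after seeing the data. Genes given with values were the paralogs, quantitative PCR reference genes, Rps6, up to 4 called members with the smallest adjusted p in each direction, the extremes between tissues, the highest and lowest per length, and up to 3 called genes of each other list; members named beyond these were chosen after their values were seen. R 4.3.3 and Python 3.11.15 were used. A result for 1 further member in SCN is not reported here.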

Additional observations from a re-analysis of the deposited data

Results flagged for a closer look

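In the TRF KO CT12 livers, library 29 had 1.52% of its counts in the 80 genes, against 1.81% to 1.86% in the other 3 libraries. The gap is 0.832 of the group's range, and this was the 1 value found in 112 tests, each on 4 libraries. The tests covered 27 genes and the summed share in the TRF KO groups of liver and heart. Chance gives about 5% of independent tests, but these used the same libraries and were not independent. Without that library, the KO effect under TRF in liver called 22 members.

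Effects that differed between tissues by a direct test are given as members of 80, with the number called among all 20006 genes in brackets. The feeding effect differed in heart against liver for 11 members (2644 genes) and in SCN against liver for 32 (2195 genes). Feeding by time differed in heart against liver for 3 (3963 genes). The KO effect under AL differed in heart against liver for 10 (3204 genes) and in SCN against liver for 30 (1612 genes). In SCN against liver the share of members was above that of all genes for both effects. In heart against liver it was near that of all genes for the feeding effect, and below it for the KO effect and feeding by time. Within a tissue, the effect of time differed between TRF and AL for 2.5% of members in liver (2 members, 31.5% of all genes). In heart it did so for 5% (4 members, 22.5% of all genes). The effect of time differed between KO and WT under AL for 11.25% of members in heart (9 members, 28.6% of all genes). In each of these comparisons of the time effect within a tissue, the share of members was below that of all genes. The KO effect differed between TRF and AL for 10 members in heart (1441 of 16397 genes). The heart values are those given with the AL WT CT12 libraries.

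Ribosomal protein pseudogenes, which no comparison used, held a median of 0.0636% of counts in liver, 0.0531% in heart and 0.0546% in SCN.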

How the results depend on the processing

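Counts are of members called, and single libraries left out are given as ranges. In liver they were 6 to 36 for TRF minus AL, 29 to 46 for KO minus WT under AL, 9 to 22 under TRF, 0 to 2 for time in AL WT, 0 in AL KO, 0 to 2 in TRF WT, 2 to 3 in TRF KO and 1 to 11 for feeding by time. In heart they were 8 to 20 for TRF minus AL, 10 to 48 for time in AL WT, 0 to 1 in TRF WT and TRF KO, 17 to 48 for KO minus WT under AL, 0 to 17 under TRF, 3 to 15 for feeding by time, 5 to 25 for genotype by time under AL and 6 to 14 for genotype by feeding. In SCN they were 19 to 38 for TRF minus AL, 0 to 16 for TRF minus AL in WT at CT12, and 0 for genotype, time and the interactions.

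Library totals gave 10 for TRF minus AL, 1 for time in TRF WT and 5 for feeding by time in liver; in heart, 2 for TRF minus AL, 3 for time in AL WT, 2 and 1 for KO minus WT under AL and TRF, 2 for feeding by time, 1 for genotype by time under AL and 1 for genotype by feeding; and 6 for the KO effect in heart against liver. No filter gave 12 for TRF minus AL, 1 for time in TRF WT and in TRF KO, 6 for KO minus WT under TRF and 1 for feeding by time in liver; 4, 15, 13, 1, 5 and 0 in heart for TRF minus AL, time in AL WT, KO minus WT under AL and TRF, genotype by time and genotype by feeding; 19 for the feeding effect in SCN against liver and 3 for the KO effect in heart against liver. DESeq2 gave 31 for TRF minus AL in liver, and in heart 1 for time in TRF WT and TRF KO, 5 for KO minus WT under TRF and 7 for feeding by time. Fitting only the groups compared gave 1 for time in TRF WT and TRF KO and 4 for KO minus WT under TRF in liver, and 1 for time in AL WT, 10 and 13 for KO minus WT under AL and TRF, 5 for genotype by time and 4 for KO minus WT under AL at CT0 in heart. TRF minus AL in WT SCN at CT12 gave 13 with library totals, 0 with no filter, 22 by DESeq2, 0 with only the groups compared, 21 without the 3-digit AL libraries and 11 without libraries 55 and 64.

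Leaving out the 3-digit AL libraries gave 0 for TRF minus AL, 16 and 8 for KO minus WT under AL and TRF and 1 for feeding by time in liver, 5 for TRF minus AL and 0 for KO minus WT under TRF, for KO minus WT under AL at CT0 and for genotype by feeding in heart, and, against liver, 2, 1 and 1 for the feeding effect, feeding by time and KO effect in heart and 18 for the KO effect in SCN. Leaving out libraries 55 and 64 gave 8 for KO minus WT under TRF and 1 for feeding by time in liver, and 0 for KO minus WT under TRF and 6 for genotype by feeding in heart; leaving out 1 and 10 gave 19 for TRF minus AL in SCN. These last libraries and the AL WT CT12 hearts were left out after seeing the data. Without the AL WT CT12 hearts, heart gave 3 for TRF minus AL, 1 for KO minus WT under AL and 0 for feeding by time and genotype by feeding, and against liver 6, 0 and 6 for the feeding effect, feeding by time and KO effect; 3 gene values changed sign, Rpl22 at -0.012 and Rps13 at -0.025 for KO minus WT under AL and Rpl3 at 0.094 for feeding by time. The cause of these changes was not tested. Without those hearts the comparisons themselves also changed. The KO effect and genotype by feeding were left with CT0, feeding by time with KO, and TRF minus AL lost WT at CT12. Against liver the same groups were used in both tissues. Of 12351 gene values under alternatives, 10066 kept direction and side of the threshold, 2282 no longer passed and 3 changed sign.

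Library numbers recur across tissues. Correlations between same-numbered libraries, as deviations from their group means, had mixed signs. They ran from -0.549 to 0.413 for heart and liver (median 0.05) and -0.211 to 0.315 for heart and SCN (median 0.04). For SCN and liver they ran from -0.231 to 0.286 (median 0.10). In that order, r was above 0.1 for 12 of 26, 8 of 24 and 12 of 24 pairs. In the same order, 6 of 26, 3 of 24 and 1 of 24 correlated best with their own number. Whether a shared number means a shared animal cannot be told from these values. With the library number as a replicate block, the calls were 8 and 28 for the feeding effect in heart and SCN against liver, 3 for feeding by time, 7 and 28 for the KO effect, and 76, 79 and 80 for levels. Low counts limit Rpl13a, Rpl35 and Rpl3l outside heart.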
